A study of Mus musculus with 6 samples.

Results

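The genes examined in stretched C2C12 myoblasts were the sestrins Sesn1, Sesn2 and Sesn3, the stress-induced gene Ddit4, and 6 genes of the mTORC1 pathway. These 6 were Rragc, Rragd, Flcn and Rheb, which act upstream of mTORC1, its subunit Deptor, and its substrate Larp1. These 10 genes were chosen by their symbols, and each symbol matched 1 of the 22375 rows of the deposited table. C2C12 is a mouse line of muscle precursor cells. The CON group was left unstretched, and the 4H group underwent cyclic stretch at 15% elongation for 4 h, with RNA-seq of 3 libraries from each. The 4H libraries carry the titles 4H1, 4H3 and 4H4, and are called 4H replicates 1, 2 and 3 here, as their descriptions number them. The model is a single cell line stretched on elastic plates, with no diaphragm tissue and no other time point in the table. Nothing in the labels says that the libraries came from separately stretched cultures, so the p-values measure only the spread between these libraries.

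The kinase complex mTORC1 drives protein synthesis and cell growth when amino acids, growth factors and energy are plentiful. At the lysosome, Rag GTPase heterodimers recruit mTORC1 when amino acids are present, and Rheb, a small GTPase held in check by the TSC complex, switches the kinase on. Sestrins restrain the Rag branch through the GATOR complexes, SESN2 as a sensor of leucine, while DDIT4 (REDD1) restrains the Rheb branch through TSC. In skeletal muscle this pathway is known for its part in load-induced growth and in the loss of mass during disuse.

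CON and 4H were compared with limma, after FPKM had been put on the log2(FPKM + 0.5) scale. The fit took in the 11593 genes whose mean reached 0.5 FPKM, p-values were adjusted over all of them, and SE stands for the standard error of a log2 fold change. FPKM is a level per transcript length and per library, so levels of different genes can be set side by side, whereas the number of fragments behind a value is unknown. A fold change on this scale understates the change of genes of low FPKM. From the steps between the lowest values (below 0.1 FPKM), library depths were estimated to lie within 1.55% of each other. Summed FPKM of 7 myoblast markers was 177 to 183 in the CON libraries and 250.3 to 263 in the 4H libraries, with 6 of the 7 at a mean of at least 1 FPKM in both groups. Of these 6, 4 rose (Myod1, Des, Cdh15 and Itga7), Myf5 fell from 15.8 ± 0.85 to 9.82 ± 1.13 FPKM (SD, n = 3, limma adjusted p = 0.000347), and Ncam1 did not pass, so the sum does not describe each marker. Markers of differentiated muscle (8 genes) summed to 2.26 to 2.67 FPKM and 3.67 to 4.76 FPKM, and Mymx was listed at 0 throughout. Markers of other cell types (14 genes) summed to 10.2 to 11.5 FPKM in CON and 21.2 to 23.1 FPKM in 4H, nearly all of it from Cd68 and Pdgfra, and Ptprc, Adgre1, Epcam, Plin1 and Rbfox3 were listed at 0 in all libraries. The part of these marker shifts in the results that follow was not tested. In bulk RNA, fewer cells of a kind and less RNA per cell cannot be told apart.

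Most of the 10 genes were lower after stretch. At an adjusted p of at most 0.05 (limma, Benjamini-Hochberg), 7 fell (Sesn2, Ddit4, Rragc, Rragd, Flcn, Rheb and Larp1), 2 rose (Sesn3 and Deptor), and Sesn1 did not pass. Among all genes tested, 24.1% were called lower and 22.6% higher, a balance that turned with rescaling to TPM (2334 lower and 3140 higher) and without the filter on low values (2598 lower and 2967 higher). It turned by a small margin without CON replicate 2 (2398 lower and 2406 higher) and without CON replicate 3 (2296 lower and 2342 higher). The 10 genes gave 7 and 2 in all of these settings. The median log2 fold change of the 10 genes was -0.37, against -0.01 for all genes tested. The groups did not overlap in any of the 10 genes, and they did not overlap in 56.7% of all genes tested. The 10 log2 fold changes ranged from -0.91 to 0.42, so none reached the absolute value of 1 that the study required for differential expression. Thus limma called 0 of the 10 at both thresholds, and 0 again with an unadjusted p under 0.05 and the same fold. Among all genes tested 3.88% passed both, so a count of 0 in 10 does not set these genes apart. Each gene gave p = 0.1 in an exact permutation test (two-sided, 3 against 3), the smallest that it allows.

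**Figure D1:**
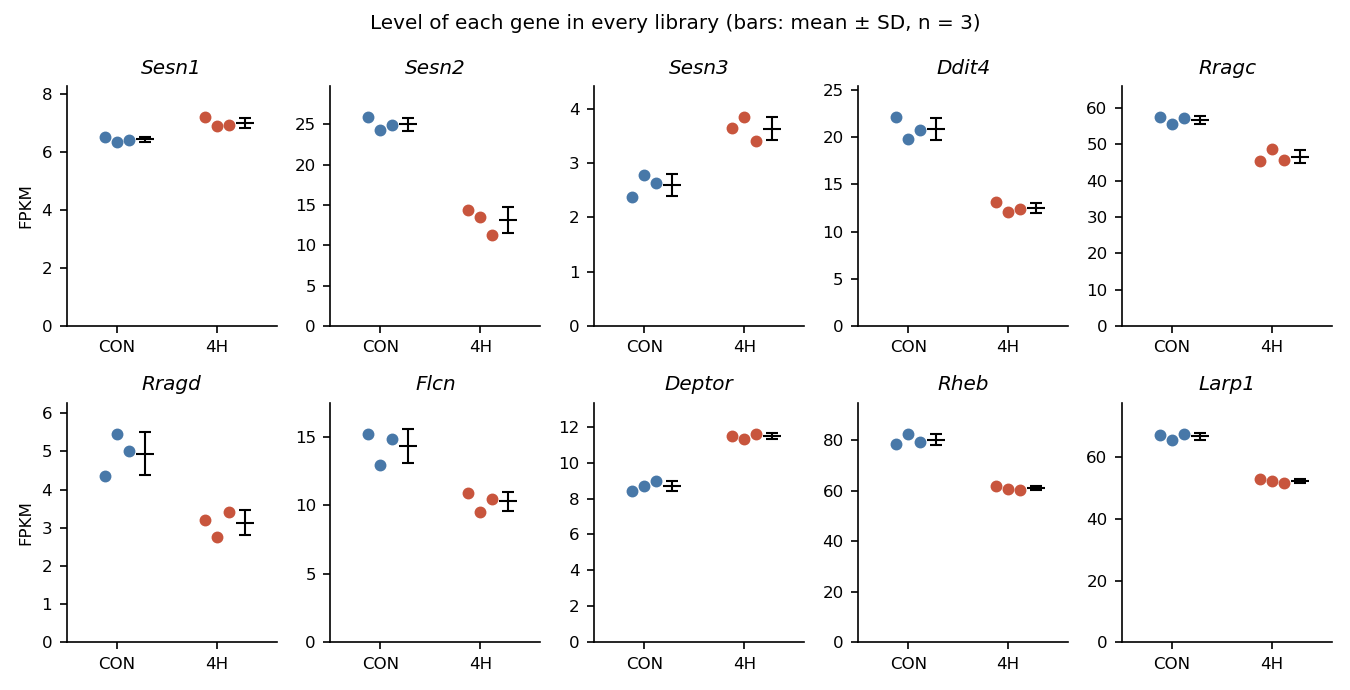
FPKM of each of the 10 genes (vertical axes, each from 0) in the 3 CON libraries (blue) and the 3 4H libraries (red), with the mean ± SD of each group in black. Sesn1, Sesn3 and Deptor had all 4H points above all CON points, and the other 7 genes had all 4H points below them.

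Sestrins are stress-inducible proteins, and SESN2 is the family member best known as a leucine sensor and as a target of the integrated stress response. Sesn2 (ENSMUSG00000028893, chr4:132492032-132510501, minus strand, GRCm38) was at 25.9, 24.2 and 24.9 FPKM in the CON libraries and at 14.4, 13.6 and 11.3 FPKM in 4H. The groups were far apart, and 4H replicate 3 was the lowest of all libraries. Mean FPKM went from 25.0 ± 0.82 to 13.1 ± 1.62 (SD, n = 3), 52.4% of the CON level, with a log2 fold change of -0.91 (SE 0.08, limma adjusted p = 6.05e-05). Of all genes tested, 1.69% fell at least as far on this scale.

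Sesn1 behaved otherwise than Sesn2. Its FPKM was 6.53, 6.36 and 6.44 in CON and 7.21, 6.90 and 6.94 in 4H, so that each 4H library lay slightly above each CON library. The log2 fold change of 0.11 had a 95% interval of -0.02 to 0.25 and did not pass (adjusted p = 0.145 from limma). Sesn3, a sestrin known as a FOXO target, was the lowest of the family and rose, from 2.38, 2.79 and 2.63 FPKM in CON to 3.64, 3.84 and 3.41 FPKM in 4H. No 4H library fell within the CON range, and the log2 fold change was 0.42 (SE 0.09, limma adjusted p = 0.00614).

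The mix of sestrin transcripts shifted accordingly. Summed sestrin FPKM was 34.8, 33.4 and 34.0 in CON and 25.3, 24.3 and 21.7 in 4H. Sesn2 made up 74.4%, 72.6% and 73.3% of this sum in the CON libraries and 57.1%, 55.8% and 52.2% in the 4H libraries, a mean of 73.4 ± 0.90% against 55.0 ± 2.54% (SD, n = 3 libraries, two-sided exact permutation p = 0.1, the smallest possible). The share of Sesn1 was 18.9 ± 0.15% in CON and 29.6 ± 2.07% in 4H (SD, n = 3), and that of Sesn3 7.64 ± 0.75% and 15.3 ± 0.80%. Sesn2 remained the most abundant sestrin transcript in every library.

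**Figure D2:**
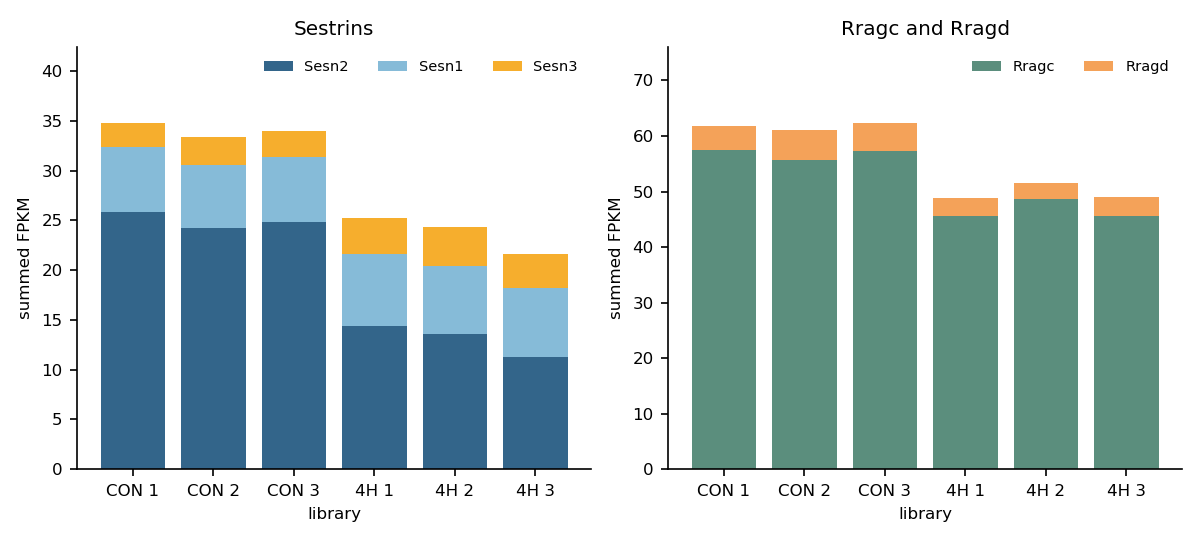
Summed FPKM per library (vertical axes) of the 3 sestrins (left) and of Rragc and Rragd (right), stacked by gene, for the 3 CON and 3 4H libraries. The summed sestrin level was 33.4 to 34.8 FPKM in CON and 21.7 to 25.3 FPKM in 4H, with the drop in the Sesn2 segment.

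DDIT4 is a short-lived inhibitor of mTORC1 that is induced by hypoxia, glucocorticoids and endoplasmic reticulum stress. Ddit4 (ENSMUSG00000020108, chr10:59949669-59951834, minus strand, GRCm38) was at 22.1, 19.8 and 20.8 FPKM in CON and at 13.1, 12.1 and 12.4 FPKM in 4H. All 4H libraries were lower than all CON libraries, and the mean was 59.9% of that of CON. The log2 fold change was -0.72 (SE 0.06, limma adjusted p = 2.67e-05), and 2.75% of all genes tested fell at least as far. Its paralog Ddit4l (REDD2), also an inhibitor of mTORC1 and known from muscle, went the other way at a much lower level. It was at 1.23, 1.13 and 0.83 FPKM in CON and at 2.95, 2.51 and 2.17 FPKM in 4H, a log2 fold change of 0.96 (SE 0.14, limma adjusted p = 0.000889).

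The DNA just upstream of Sesn2 and Ddit4, the genes with the largest falls, is shown from the RefSeq promoter table (GRCm38.p6), each on the strand of its gene and ending at the start of the gene. The Sesn2 stretch is chr4:132510502-132510651 and the Ddit4 stretch chr10:59951835-59951984, and capitals mark the hypoxia response core ACGTG, which the Sesn2 stretch does not hold.

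Sesn2: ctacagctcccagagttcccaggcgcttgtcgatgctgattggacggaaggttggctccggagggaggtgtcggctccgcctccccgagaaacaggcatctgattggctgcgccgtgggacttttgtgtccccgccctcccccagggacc

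Ddit4: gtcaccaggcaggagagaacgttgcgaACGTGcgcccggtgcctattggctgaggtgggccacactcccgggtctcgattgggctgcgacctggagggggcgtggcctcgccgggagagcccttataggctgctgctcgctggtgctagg

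The table held 10 promoters for 9 of the 10 genes, each with 250 bases before and 50 bases after a start. Deptor was not matched. Both strands were searched for 5 sets of letters. The C/EBP-ATF composite TTGCATCA was in 0 of the 10 promoters and in 0.895% of the 32851 promoters of the table. The E-box CACGTG, the core of the CLEAR element through which TFEB and TFE3 act, was in those of Rragc and Rheb and in 7.15% of all. Its longer form GTCACGTG was in that of Rheb alone among these genes and in 2.25% of all. The FOXO letters TGTTTAC were in 1 of the 2 promoters of Sesn1 and in 3.65% of all. The core ACGTG, which every CACGTG contains, was in those of Ddit4, Rragc and Rheb and in 19.6% of all. The matches in Rragc (chr4:123917309-123917338), Rheb (chr5:24842440-24842469, minus strand) and Sesn1 (chr10:41810585-41810614) lie in the following stretches, with the searched letters in capitals.

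Rragc: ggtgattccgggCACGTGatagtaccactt

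Rheb: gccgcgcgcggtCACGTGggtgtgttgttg

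Sesn1: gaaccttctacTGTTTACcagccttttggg

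RagC and RagD are alternative partners of RagA or RagB in the heterodimer that binds mTORC1. Rragc (ENSMUSG00000028646, chr4:123917446-123936997, plus strand) was by far the more abundant of the pair, at 57.5, 55.6 and 57.3 FPKM in CON. In the 4H libraries it was at 45.6, 48.7 and 45.6 FPKM, below every CON library, a log2 fold change of -0.28 (SE 0.04, limma adjusted p = 0.000493). An exon of Rragc overlaps that of 1 gene on the other strand, and their reads cannot be told apart if strand was ignored in counting.

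Rragd (ENSMUSG00000028278, chr4:32983037-33022180, plus strand) fell further, from 4.35, 5.46 and 5.02 FPKM in CON to 3.21, 2.77 and 3.41 FPKM in 4H. Its log2 fold change was -0.58 (SE 0.11, limma adjusted p = 0.00260), with more spread between libraries than for Rragc. Rragd made up 8.01 ± 0.95% of the summed FPKM of the pair in CON and 6.31 ± 0.82% in 4H (SD, n = 3 libraries, two-sided exact permutation p = 0.1). The summed level of the pair was 61.1 to 62.3 FPKM in CON and 48.8 to 51.4 FPKM in 4H. Of their partners, Rraga was at 22.2 ± 0.58 FPKM in CON and 23.1 ± 0.37 FPKM in 4H (SD, n = 3 libraries, adjusted p = 0.295), and Rragb was listed at 0 in all 6 libraries. A listed 0 in FPKM can be a failed estimate, so it is not read as absence of the transcript.

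Folliculin, the product of Flcn, acts with FNIP1 or FNIP2 as the GTPase-activating protein of RagC and RagD, and so controls whether TFEB and TFE3 are held in the cytoplasm. Flcn (ENSMUSG00000032633, chr11:59791408-59810016, minus strand) was at 15.23, 12.96 and 14.86 FPKM in CON and at 10.90, 9.55 and 10.45 FPKM in 4H. The groups did not overlap, and CON replicate 2 and 4H replicate 2 were the lowest of their groups. Its log2 fold change was -0.46 (SE 0.08, limma adjusted p = 0.00160). Both partners fell as well. Fnip1 was at 24.8 ± 1.39 FPKM in CON and 17.2 ± 0.39 FPKM in 4H (SD, n = 3), a log2 fold change of -0.51 with a limma adjusted p of 9.07e-05. Fnip2 stood at 10.6 ± 0.71 and 6.51 ± 0.28 FPKM, which is a log2 fold change of -0.67 with a limma adjusted p of 0.000110. So 3 of 3 genes of this complex were lower in 4H, against 24.1% of all genes tested, but the list is small.

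Rheb, the direct activator of mTORC1, was the most abundant of the 10 transcripts. Rheb (ENSMUSG00000028945, chr5:24802823-24842624, minus strand) was at 78.7, 82.6 and 79.5 FPKM in CON and at 61.9, 60.8 and 60.5 FPKM in 4H. The gap between the groups was several times the spread within either of them. The log2 fold change was -0.39 (SE 0.03, limma adjusted p = 3.04e-05), a level of 76.1% of CON. Its close relative Rhebl1 was lower as well, at 6.99 ± 0.64 and 5.55 ± 0.28 FPKM (SD, n = 3, log2 fold change -0.31, adjusted p = 0.0153), a call that was lost without CON replicate 3 (adjusted p = 0.0513).

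Deptor is a subunit of mTOR complexes that inhibits the kinase. In contrast to most of the other genes it rose, from 8.41, 8.70 and 8.97 FPKM in CON to 11.5, 11.3 and 11.6 FPKM in 4H. The 4H libraries were close together and all above CON, with a log2 fold change of 0.38 (SE 0.05, limma adjusted p = 0.000556). Deptor (ENSMUSG00000022419, chr15:55112317-55259271, plus strand) overlaps exons of 1 gene on the other strand. As a result of these shifts, Flcn was above Deptor in every CON library and below it in every 4H library.

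LARP1 is a substrate of mTORC1 that binds mRNAs with a 5' terminal oligopyrimidine tract, those of ribosomal proteins above all, and both represses and stabilises them. Larp1 (ENSMUSG00000037331, chr11:58009064-58062034, plus strand) was at 67.2, 65.5 and 67.5 FPKM in CON and at 52.9, 52.1 and 51.5 FPKM in 4H. Replicates differed little, and the groups were clearly apart. The log2 fold change was -0.35 (SE 0.03, limma adjusted p = 4.60e-05), 78.2% of the CON level. Of the 75-base stretches of its longest coding transcript, 0.963% recur in another gene. For Deptor this share was 0.224%, and it was 0 for the other 8 genes.

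By level, the 10 genes in CON ran from Rheb through Larp1, Rragc, Sesn2, Ddit4, Flcn, Deptor, Sesn1 and Rragd to Sesn3 at 2.60 ± 0.20 FPKM (SD, n = 3), and no neighbours in this order overlapped between libraries. In 4H the order differed in 2 places. Deptor passed Flcn, and Sesn3 passed Rragd. In 4H replicate 3, Sesn3 and Rragd were almost equal, at 3.413 and 3.411 FPKM. Sesn2 and Ddit4 overlapped in 4H, at 11.3 to 14.4 and 12.1 to 13.1 FPKM, so their order there could not be told.

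The wider pathway was described with lists of its complexes, of mTORC1 substrates and effectors, of energy sensing, and of subunits found only in mTORC2. They held 68 genes in all, of which 65 could be tested. Of these 65, 12 were higher and 22 lower in 4H at an adjusted p of at most 0.05 (limma), and the median log2 fold change was -0.04. Leaving out the 10 genes, 10 of the other 55 were higher and 15 lower, with a median of -0.01. The shares called among these 55 are near those of all genes tested.

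The complexes were small lists, and differences between them were not tested. Among all genes tested, 46.7% were called in either direction. In GATOR1, which inhibits the Rag GTPases, limma called 0 of 3 genes, and 0 had an unadjusted p under 0.05. In GATOR2, the complex that sestrins bind, Wdr59 was lower (log2 fold change -0.44, adjusted p = 0.00188) and Sec13, also a subunit of the nuclear pore and the COPII coat, was higher (0.20, adjusted p = 0.00393), while the other 3 did not pass. KICSTOR, which anchors GATOR1 to the lysosome, had 1 of 4 genes lower, Itfg2, at an adjusted p of 0.0489. The arginine sensors Castor1 and Castor2 both rose, from 2.17 ± 0.20 to 3.18 ± 0.18 FPKM (SD, n = 3, adjusted p = 0.00477) and from 2.29 ± 0.20 to 3.41 ± 0.32 FPKM (adjusted p = 0.00491), and in this list of 4 amino acid and methyl donor sensors 3 were higher. Ragulator, the lysosomal anchor of the Rag GTPases, had 3 of 5 genes lower, with Lamtor2 at a log2 fold change of -0.38 (adjusted p = 0.00259) and Lamtor3 at -0.23 (adjusted p = 0.00586).

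Of the TSC complex and Rheb genes, 3 of 5 were lower, among them Tsc1 at the edge of the threshold (log2 fold change -0.19, adjusted p = 0.0422). Both Tsc1 and Itfg2 lost their calls in 9 of 15 alternative settings. Of the mTORC1 subunits, Deptor and Rptor, the substrate-binding subunit, rose (0.24 for Rptor, adjusted p = 0.00397), Akt1s1, which encodes the inhibitory subunit PRAS40, fell (-0.33, adjusted p = 0.000134), and Mtor and Mlst8 did not pass. Of the subunits found only in mTORC2, limma called 0 of 3, and 0 had an unadjusted p under 0.05.

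Of 13 substrates and effectors tested with limma, 6 fell and 0 rose, with 2 above CON at an unadjusted p under 0.05. On the log2(FPKM + 0.5) scale the pathway gene with the largest change was Eif4ebp1, which encodes the translation repressor 4E-BP1 and is also known as a target of ATF4. It was at 70.5, 70.5 and 71.2 FPKM in CON and at 30.03, 32.40 and 29.19 FPKM in 4H, and its log2 fold change of -1.20 (SE 0.04, limma adjusted p = 4.03e-07) was the only one of the 65 past both thresholds of the study in this fit. Ddit4l passed both as well with a pseudocount of 0.1, after rescaling to TPM, and without CON replicate 1 or 4H replicate 3, with log2 fold changes of 1.04 to 1.19. Maf1, a repressor of RNA polymerase III, fell by 0.28 on the log2 scale (adjusted p = 0.00112). In the energy-sensing list (AMPK subunits and Stk11), 4 of 7 genes were higher and 0 lower by limma, also 0 at an unadjusted p under 0.05, with Prkab2 at a log2 fold change of 0.51 (adjusted p = 0.00119) and Prkaa1 at 0.24 (adjusted p = 0.00123).

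**Figure D3:**
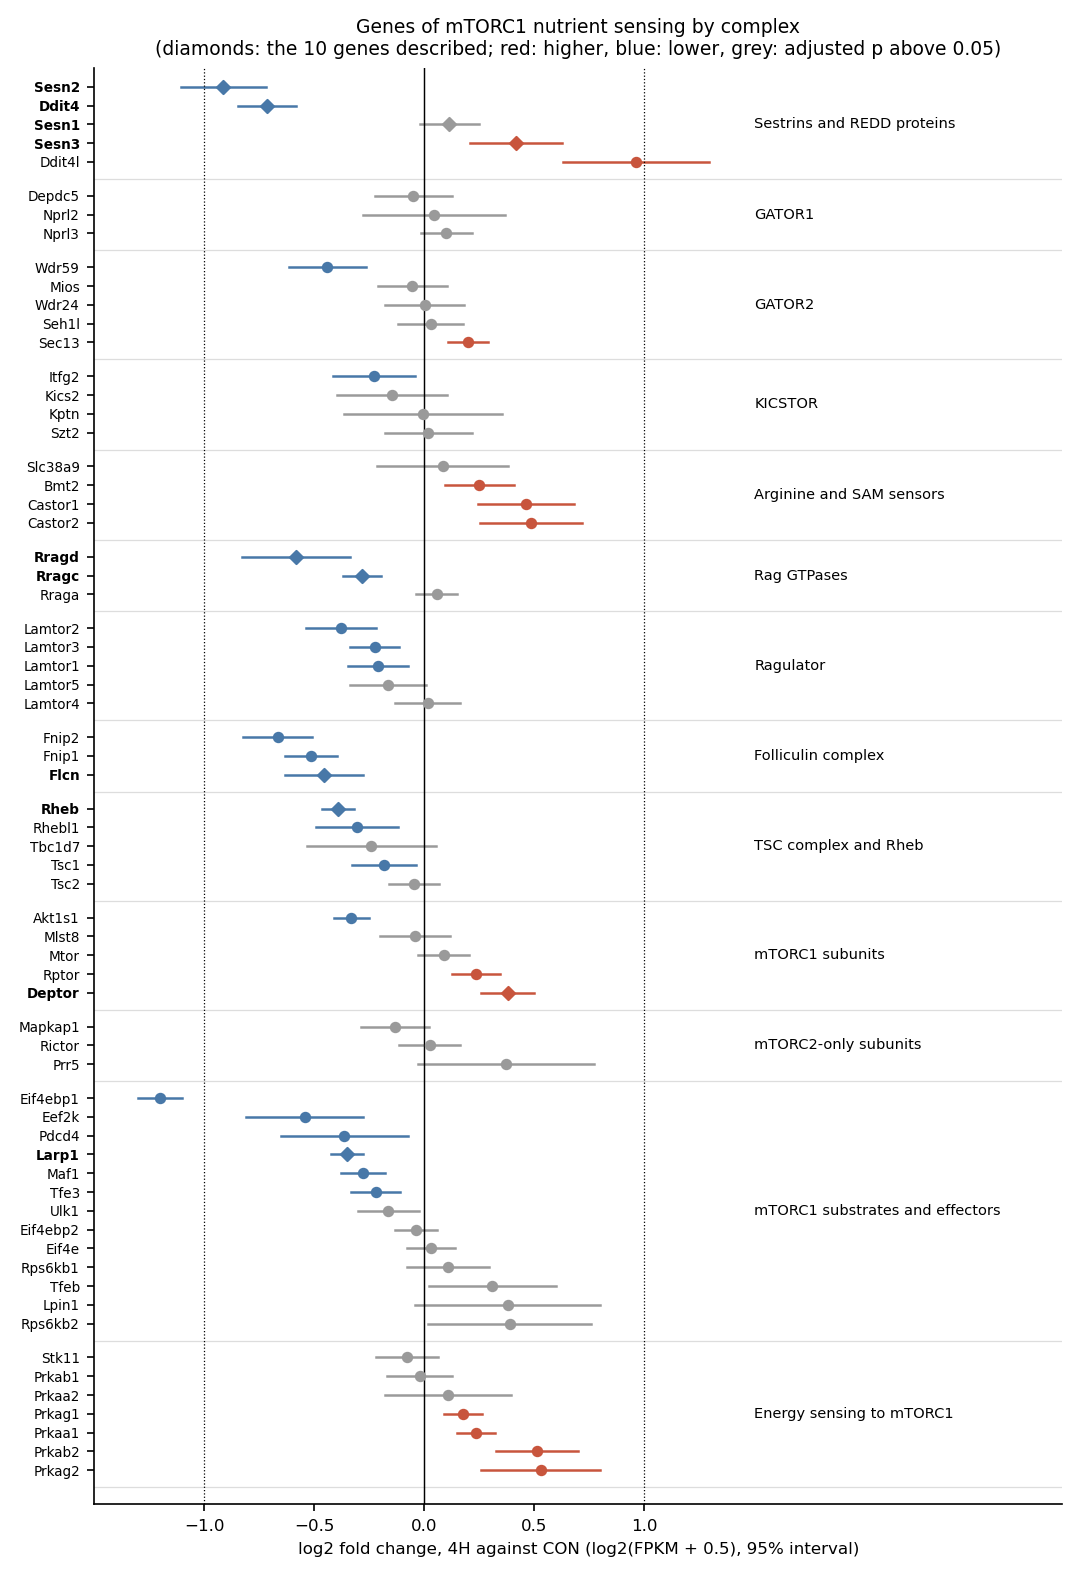
Log2 fold change of 4H against CON on the log2(FPKM + 0.5) scale (horizontal axis, lines are 95% intervals from limma) for the 65 tested genes of the pathway lists. The genes are grouped by list, mTORC1 substrates and mTORC2-only subunits included, with dotted lines at -1 and 1. Eif4ebp1 is the only gene beyond a dotted line, at -1.20, and the 3 folliculin complex genes all lie on the lower side.

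Lists of genes linked to factors that are known to act on sestrins, Ddit4, Flcn or the Rag genes were counted in the same fit, and each count is to be read against the 24.1% lower and 22.6% higher among all genes tested. In the ATF4 list 16 of 16 were lower, with a median log2 fold change of -1.26, and 11 of its genes passed both thresholds. Sesn2 and Ddit4 belong to this list, and the 14 others were all lower. Asns, which encodes asparagine synthetase, fell from 288 ± 5.22 to 81.1 ± 2.10 FPKM (SD, n = 3, adjusted p = 1.73e-08), and Phgdh, the entry enzyme of serine synthesis, from 382 ± 4.86 to 155 ± 3.599 FPKM (adjusted p = 6.02e-08). Ddit4 had the smallest fall of this list and Sesn2 the fifth smallest, and the log2 fold changes reached -2.86 (Vldlr, a lipoprotein receptor, named after its value was seen). This list was written with falls of ATF4 target genes in these data already known, so its direction is not independent evidence.

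The list of TFEB and TFE3 targets holds Flcn, Fnip1, Fnip2, Rragc and Rragd. In it, 9 of 15 genes were lower and 2 higher, with a median of -0.25, and without Flcn, Rragc and Rragd 6 of 12 were lower and 2 higher, with Fnip1 and Fnip2 among the 6. Sqstm1, the autophagy receptor p62 and also a target of NRF2, fell from 877 ± 31.3 to 332 ± 7.91 FPKM (SD, n = 3, adjusted p = 7.06e-08), whereas Ctsd, a lysosomal protease, rose from 239 ± 7.33 to 318 ± 2.50 FPKM (adjusted p = 1.27e-05).

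The remaining lists held calls in both directions, as did all genes tested, of which 46.7% were called, so nothing is read from these lists as such. Of the p53-linked genes, 5 of 12 were higher and 4 lower, with Trp53 at a log2 fold change of -0.60 (adjusted p = 5.68e-06) and its target Ccng1 at 0.65 (adjusted p = 9.48e-06). FOXO-linked genes gave 2 higher and 4 lower of 11, with the transcription factor Klf15 at 2.15 ± 0.24 and 0.0739 ± 0.02 FPKM (SD, n = 3, adjusted p = 5.03e-06) and the autophagy gene Gabarapl1 at a log2 fold change of -0.39 (adjusted p = 0.000223). Among glucocorticoid- and hypoxia-linked genes 5 of 11 were higher and 3 lower. Split by factor, which was done after the values were seen, the 3 lower genes (Fkbp5, Tsc22d3 and Klf9) and 2 of the higher ones (Sgk1 and Per1) are glucocorticoid-linked, and the 3 other higher genes (Egln3, Pdk1 and Slc2a1) are hypoxia-linked, as are the 3 that did not pass (Vegfa, Bnip3 and Ankrd37). Of the called genes, Sgk1, a kinase gene induced by glucocorticoids, rose by 1.41 on the log2 scale (adjusted p = 6.30e-08), and Klf9, another glucocorticoid target, was at -0.64 (adjusted p = 1.87e-05).

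**Figure D4:**
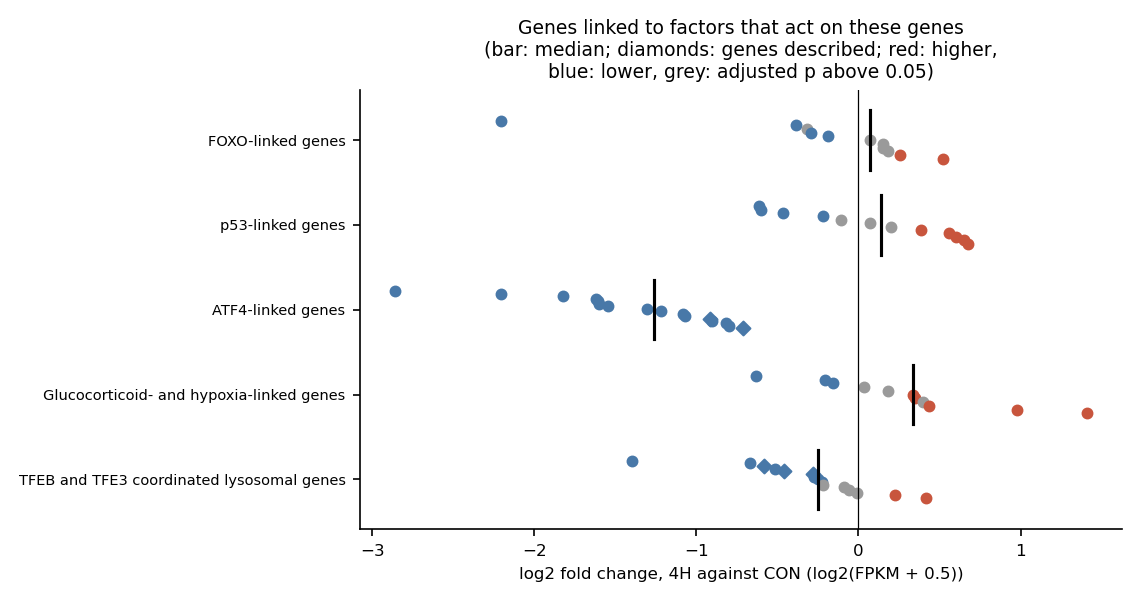
Log2 fold change of 4H against CON on the log2(FPKM + 0.5) scale (horizontal axis) for the tested genes of 5 lists, 1 point per gene, with the median of each list as a black bar. All 16 points of the ATF4 list lie below 0, with Sesn2 and Ddit4 (diamonds) near its right end, and the p53, FOXO and glucocorticoid and hypoxia lists lie on both sides.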

How the data were processed

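RNA-seq of C2C12 cells was analysed from 3 CON and 3 4H libraries, grouped by their labels. Per the labels, libraries were prepared from poly(A)-selected RNA with dUTP marking of the second strand and read from both ends. The table that the authors deposited holds FPKM, with a column for each library. The submitters' processing notes name the build mm10. Aligner, counting tool and annotation: not given in the sources used here. Positions are from GENCODE M21 (GRCm38, the assembly of mm10), which held 22017 of the 22128 Ensembl identifiers of the table, and promoters from RefSeq (GRCm38.p6). Protein sequences were not used here.

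FPKM is normalized, so no count model was used. Genes whose mean reached 0.5 FPKM entered a limma 3.58.1 fit under R 4.3.3 (lmFit, eBayes with a trend) on log2(FPKM + 0.5), two-sided, with Benjamini-Hochberg adjustment over all genes tested. The thresholds of the study (absolute log2 fold change of at least 1, adjusted p of at most 0.05) were kept. The step was tested on simulated data. Shares of paralogs were compared with exact permutation tests in SciPy 1.17.1. The alternatives were pseudocounts of 0.1 and 1, no filter and a filter at 1 FPKM, a replicate block, no trend, quantile normalization, scaling by median ratios, conversion to TPM, leaving out each library, and a fold threshold on the ratio of means.

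The genes named are the 10 genes, pathway genes past both thresholds, and in each list the 2 genes outside the 10 with the smallest adjusted p at most 0.05 (Eif4ebp1 counts under both parts). Marker genes and the genes given for comparison with a described gene (Rraga, Rragb, Mtor, Mlst8, Vldlr), and the genes of the split by factor, were added once values had been seen. The genes and lists were chosen with earlier results of these data known.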

Additional observations from a re-analysis of the deposited data

How the results depend on the processing

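All 10 genes kept their direction and their side of an adjusted p of 0.05 in each of 15 alternative settings of the limma fit, so 7 were lower and 2 higher throughout, and 0 reached both thresholds in any of them, nor with the ratio of mean FPKM. The log2 fold change of Sesn2 stayed between -0.98 and -0.81 and that of Ddit4 between -0.75 and -0.68. Ddit4l ranged from 0.78 to 1.19 and so passed the fold of the study in some settings. The adjusted p of Sesn1 ranged from 0.0581 to 0.306. Pathway genes called higher numbered 11 to 13 and those called lower 18 to 22, also with each library left out. With 1 library left out, the 4H minus CON difference in the Sesn2 share of sestrin FPKM stayed between -19.4 and -17.0 percentage points, and that of the Rragd share between -2.19 and -1.24. Over all genes tested, 450 passed both thresholds, and 703 with rescaling to TPM, where 12457 genes rather than 11593 passed the filter. Summed FPKM was 395790 to 397260 in the CON libraries and 385146 to 387516 in the 4H libraries. Rescaling to TPM brings every library to the same, larger sum. Each value therefore rises against an unchanged filter and pseudocount, and 4H values rise slightly more. With a pseudocount of 0.1 and no rescaling, 591 genes passed both thresholds. How much each of these adds to the 703 was not tested. Replicate numbers recur in both groups of the labels. Deviations from the group means of same-numbered libraries correlated at 0.025, -0.093 and -0.126, so these numbers were not taken as pairs. By title, 4H3 (4H replicate 2) shares its number with C3 (CON replicate 3), a pair that correlated at 0.176, the highest of any. A block by title was not fitted. With the replicate block, the 10 genes again gave 7 lower and 2 higher, and the pathway 20 lower and 12 higher. Because FPKM holds no fragment numbers, no counting error is given, and precision rests on 3 libraries per group.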
